A study of Homo sapiens with 4 samples.

Results

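Circular RNAs made from CCDC7, a coiled-coil gene on chromosome 10, were followed in 4 long-read libraries of the human breast cancer line MDA-MB-468, sequenced on Nanopore to find circles that depend on HNRNPL. A circle was counted as CCDC7 when the deposited table named CCDC7 among its genes and did not call it antisense. This gave 56 of 211599 back-splice positions, and 50 of the 56 had at least 1 count. Another 3 positions named CCDC7 but were called antisense. CCDC7 was picked for description with the difference between knockdown and control in these same libraries already known, so that difference is described and not tested.

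The cells of all 4 libraries had been made radiation-resistant with a fractionated total of 50 Gy, so resistance is shared by both groups and nothing here compares it with unirradiated cells. The 2 control libraries carried a control short hairpin RNA (shCtrl) and have the genotype label WT. The 2 knockdown libraries carried a stable hairpin against HNRNPL (shHNRNPL), and the protocol names a single hairpin, so an effect of that hairpin other than on HNRNPL cannot be told apart from loss of HNRNPL. The labels call the replicates biological but name no separate cultures. No position in the table named HNRNPL, so the knockdown rests on the labels.

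A circular RNA forms by back-splicing, when the splice donor at the end of an exon joins to an acceptor upstream of it and closes the exons between them into a ring. The circle has no free ends, which protects it from exonucleases. HNRNPL is an RNA-binding protein that prefers CA-rich RNA and regulates alternative splicing. CCDC7, also called BioT2, encodes a protein with coiled-coil segments and is best known from testis. The values below count reads across its circles and say nothing of its linear mRNA or its protein.

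The libraries held 1702290 counts in total, from 282737 to 556578 each. Values are given as counts per 100000 circular counts of the library. Such a value is a share, so more CCDC7 circles and fewer of all other circles cannot be told apart. Where a library had no count of a circle, up to 3 counts remain possible. That floor was 0.635 and 0.539 per 100000 for control replicates 1 and 2, against 1.06 and 0.768 for the matching knockdown numbers. Control replicate 1 stood apart in content, with 19.7% of its counts in circles of the intron type against 9.93% to 10.6% in the other libraries. Results are therefore also given without it where it moves them. Of the fixed markers, circles of EGFR, EPCAM, CDH1, ERBB3 and MET were found in this epithelial line, while KRT8 and KRT18 had 0 counts. None of 6 marker genes of leukocytes, endothelium or fibroblasts had a circle (PTPRC, CD3E, PECAM1, COL1A2, DCN and PDGFRB). Of 5 germ cell genes, SYCP2 had 446 counts and TEX14 had 6, and DDX4, SYCP1 and PRM1 had 0. SYCP2 differed in the same direction as CCDC7, while all 6 counts of TEX14 were in control replicate 1. The germ cell list thus summed, almost wholly through SYCP2, to 10.6 and 26.6 per 100000 in controls against 35.01 and 39.7 in knockdowns, and its part in the results was not tested. The epithelial list summed to 108 and 79.8 in controls against 76.0 and 68.9 in knockdowns. Circle counts are not mRNA levels, so these are a weak check of cell identity.

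CCDC7 spans 32443324 to 32882864 on chromosome 10 in the RefSeq table of GRCh38.p14, the build that the submitters' processing notes name. All 56 positions lay inside this span and on the plus strand, and none named a second gene. The 50 detected circles held 697 counts, and 12 of them with at least 10 counts each held 82.6%. The remaining 38 had 1 to 9 counts and together 121. The circles were between 398 and 5935 nt long, with a median of 1010 nt, and the genomic distance they closed ran from 1177 to 188051 nt. In its first listed isoform a circle joined up to 19 exons, with a median of 7.

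The table called 34 of the positions exon circles and 22 intron circles. Of the 19 detected intron circles, 15 listed several exons in their first isoform and 4 were single unspliced stretches. Exon circles held 615 counts and intron circles 82. The splice letters, as the table gives them, were AG and GT for 51 of the 56 positions, the canonical acceptor and donor. The other 5 positions held 13 counts. Numbers stand beside the letters, and they differ from 0 for some of the 51, such as 32822669 to 32825282. The sources used here do not explain those numbers, so the letters need not lie at the recorded ends. An asterisk follows these letters at all 22 intron positions and at 3 of the 34 exon positions, and its meaning is not given in the sources used here.

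The most abundant circle held 370 of the 697 counts. It ran from 32451592 to 32474023 and joined 6 exons into 659 nt. In genomic order these exons were 330, 93, 84, 33, 62 and 57 nt long. The first 4 and the last were multiples of 3, and the 62-nt exon made the whole length of 659 nt no multiple of 3. The introns inside the circle were 1422, 2814, 6682, 9431 and 1424 nt long. The nearest exons listed in any other CCDC7 circle lay 4424 nt before its first exon and 7647 nt after its last.

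Control replicates 1 and 2 held 7 and 17 counts of the 659-nt circle, and knockdown replicates 1 and 2 held 123 and 223. As levels these were 1.48 and 3.05 per 100000 in controls against 43.5 and 57.1 in knockdowns. Both knockdown libraries lay far above both controls. The group means were 2.27 ± 1.11 and 50.3 ± 9.61 per 100000 (SD, n = 2), a ratio of 22.2. Against control replicate 2 alone the ratio was 16.5, and against control replicate 1 alone it was 33.9. The fitted log2 fold change in edgeR was 4.42 ± 0.44 (SE), and over 13 settings it lay between 4.22 and 4.90. By abundance the circle ranked 9356th and 4208th among all circles of the controls, and 181st and 142nd in the knockdowns. Of 21576 circles with at least 10 counts in the whole table, 3.17% had a ratio at or above that of this circle, those with 0 counts in controls included.

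**Figure D1:**
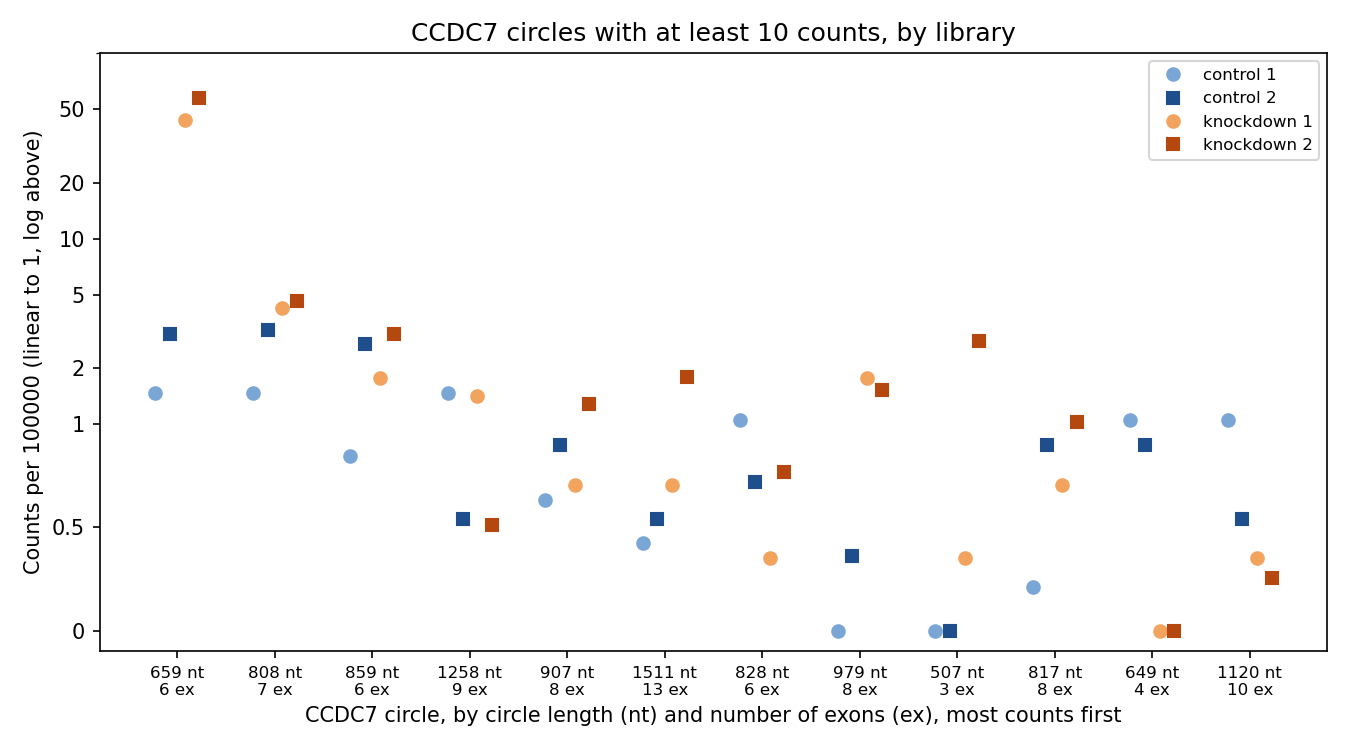
Counts per 100000 of the 12 CCDC7 circles with at least 10 counts, 1 point per library, on an axis that is linear up to 1 and logarithmic above. The 659-nt circle is at 43.5 and 57.1 in the knockdown libraries and at 1.48 and 3.05 in the controls, while no other circle passes 5 in any library.

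The make-up of the CCDC7 counts differed accordingly. The 659-nt circle was 7 of 62 CCDC7 counts in control replicate 1, which is 11.3% (exact 95% binomial interval 4.66 to 21.9%). In control replicate 2 it was 17 of 117, or 14.5% (8.70 to 22.2%). In knockdown replicate 1 it was 123 of 189, or 65.1% (57.8 to 71.9%), and in knockdown replicate 2 it was 223 of 329, or 67.8% (62.4 to 72.8%). The shares of both knockdown libraries lay above those of both controls. The intervals treat reads as independent draws within a library and are no test between groups. The reads were amplified without molecular identifiers, so the intervals may be too narrow. By group the share was 12.9% ± 2.29 in controls and 66.4% ± 1.91 in knockdowns (SD, n = 2).

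Summed over all its circles, CCDC7 had 13.1 and 21.0 counts per 100000 in controls against 66.8 and 84.2 in knockdowns. Among host genes with a count it ranked 1752nd of 12633 and 1101st of 9906 in the controls, and 304th of 9273 and 230th of 9823 in the knockdowns. The means were 17.1 ± 5.58 and 75.5 ± 12.3 per 100000 (SD, n = 2), a ratio of 4.42. The fitted log2 fold change in edgeR was 2.43 ± 0.43 (SE), or 2.02 without control replicate 1 and 3.10 without control replicate 2. That fit covered 8379 host genes, and 37 (0.442%) had an adjusted p under 0.05, all of them higher after knockdown. CCDC7 was not among those 37 in this fit, and no test of it is read, because it was chosen on this contrast.

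**Figure D2:**
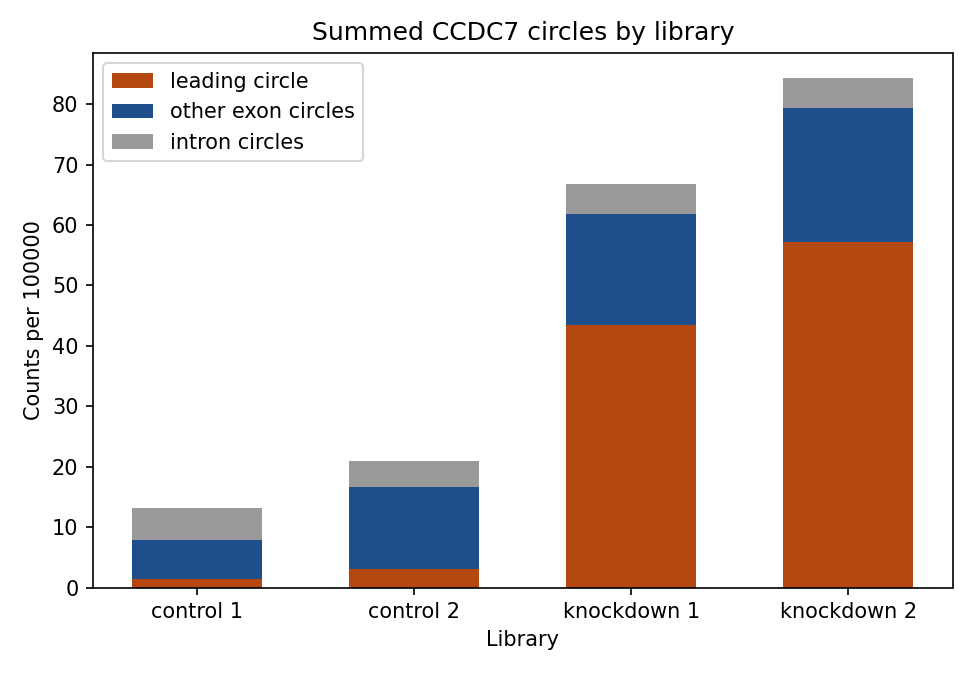
Summed CCDC7 counts per 100000 in each library, stacked as the 659-nt leading circle, the other exon circles and the intron circles. Intron circles take 4.31 to 5.29 per 100000 in every library, and the leading circle makes up 43.5 and 57.1 in the knockdown libraries.

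The other 49 detected circles differed much less between groups. Together they had 11.6 and 18.0 counts per 100000 in controls against 23.3 and 27.1 in knockdowns. The groups did not overlap, but the ratio of the means was 1.71, and 1.40 against control replicate 2 alone. Refitted without the 659-nt circle, the log2 fold change of CCDC7 was 1.05 ± 0.40 (SE) in edgeR, a setting added after the data had been seen. The other 30 exon circles were at 6.35 and 13.7 per 100000 in controls against 18.4 and 22.3 in knockdowns. The 19 intron circles were at 5.29 and 4.31 in controls against 4.95 and 4.86 in knockdowns, a ratio of 1.02 with overlapping groups. Intron circles made up 40.3% of the CCDC7 counts of control replicate 1 and 20.5% of those of control replicate 2, against 7.41% and 5.78% after knockdown. The high intron share of control replicate 1 over its whole library moves with that first value, and its part in it was not tested.

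Exon for exon, the abundant circles formed 2 blocks along the gene. The first block lay within the span of the 659-nt circle, and the second ran from 32543300 to 32635158. Of the 12 circles with at least 10 counts, 3 lay within the first block, 8 lay within the second, and 1 reached from the first into the second.

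**Figure D3:**
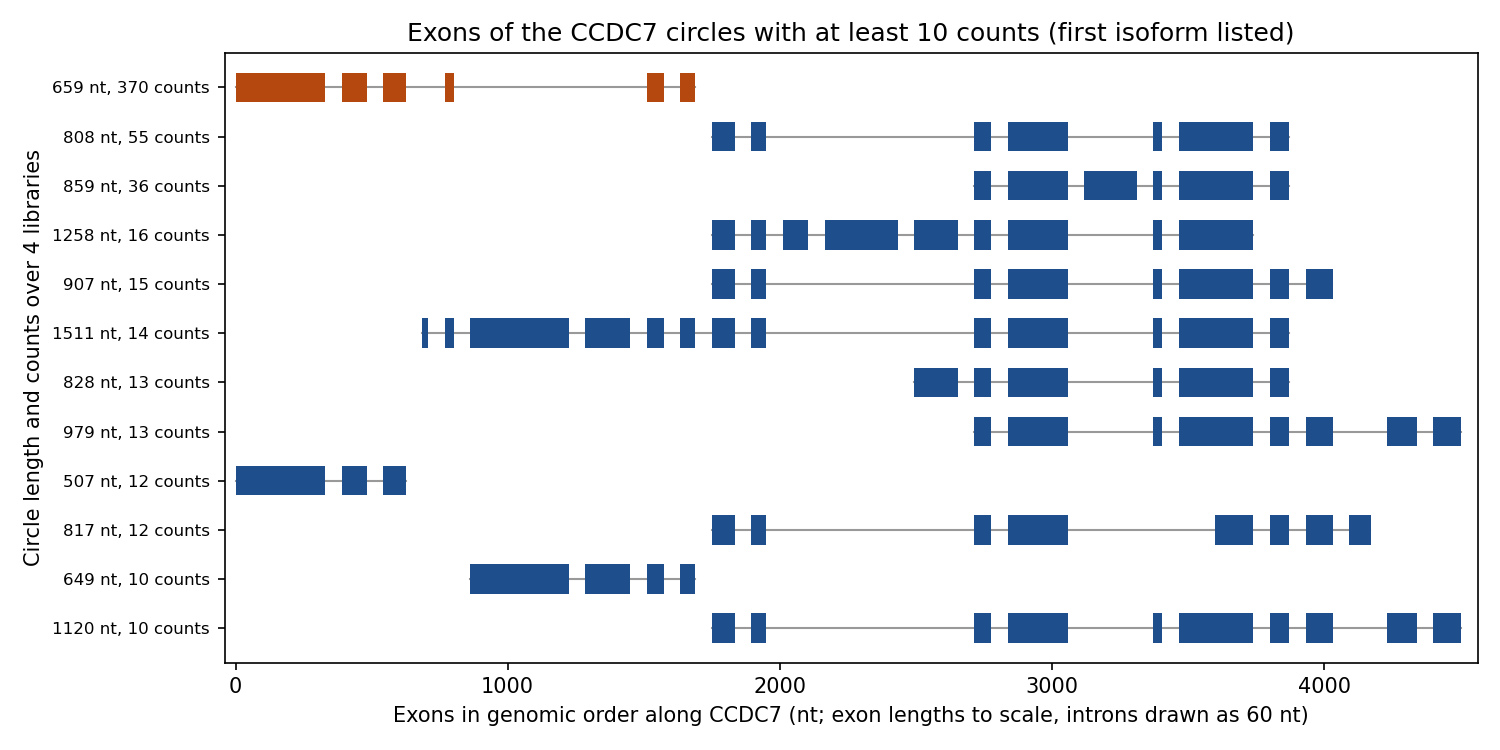
Exons of the 12 CCDC7 circles with at least 10 counts, in genomic order, with exon lengths to scale and each intron drawn as a short fixed gap. The 659-nt circle lies with the 507-nt and 649-nt circles at the start of the gene, and only the 1511-nt circle joins exons of both blocks.

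In the first block, the 507-nt circle (32451592 to 32456334) closed the first 3 exons of the 659-nt circle on themselves, from the same start. It had 0 counts in both controls, 1 in knockdown replicate 1 and 11 in knockdown replicate 2. Against the floor of 3 counts in each control it was at least 2.70-fold higher in the knockdown mean. Almost all of that came from 1 library, and the value in knockdown replicate 1 lay below the floor. A 528-nt circle (32451592 to 32462703), again from that start, had 0 counts in both controls and 4 and 3 in the knockdowns. Against the same floor it was at least 1.86-fold higher. Such bounds allow for unseen counts only in the group with 0 counts, and take the few counts of the other group as exact.

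The 649-nt circle (32469385 to 32474023) shared its end with the 659-nt circle but not its start. It had 5 counts in each control and 0 in each knockdown. Against the floor of 3 counts in each knockdown library it was at least 1.07-fold lower, so these depths can barely show the difference. It opens with a 363-nt exon and continues with a 167-nt exon, and the 659-nt circle listed neither of them although both lie within its span. It then shares the last 2 exons of the 659-nt circle. The table also lists a form in which a 3158-nt stretch replaces all but the last exon, and one in which a 1846-nt stretch replaces the first pair. It gives no counts per form.

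The other circles from the start and to the end of the 659-nt circle were also summed. With that circle left out, the other 6 circles from start 32451592 had 1 and 7 counts in controls against 9 and 20 in knockdowns. The ratio of their means per 100000 was 5.65, or 3.30 against control replicate 2 alone and 19.6 against control replicate 1 alone. A 1509-nt circle of this set (32451592 to 32623817) had more counts in controls, with 1 and 6 against 0 and 2. The other 3 circles to end 32474023 had 6 counts in each control and 2 and 1 in the knockdowns, a ratio of 0.410. That set rested mostly on the 649-nt circle, and its 409-nt circle (32469625 to 32474023) had 1 and 0 counts in controls against 2 and 1 in knockdowns. The first set was higher and the second lower in both knockdown libraries, each on few counts, and the difference between the sets was not tested. Apart from the 659-nt circle, circles that listed the 21-nt exon at 32462683 in at least 1 isoform had 2 and 4 counts in controls against 6 and 12 in knockdowns. Those that listed the 363-nt exon had 8 and 10 in controls against 2 and 9 in knockdowns. For the 167-nt exon at 32471064 the counts were 9 and 11 in controls against 11 and 16 in knockdowns. As levels per 100000, the groups overlapped for the 363-nt exon. They did not overlap for the 21-nt and 167-nt exons, both higher after knockdown. These sets are not separate, since the 1511-nt circle described below lists all 3 exons. It had 2 and 3 counts in controls against 2 and 7 in knockdowns. The set of the 21-nt exon also holds the 528-nt circle given above. Circles with the 167-nt exon were at 1.91 and 1.98 in controls against 3.89 and 4.10 in knockdowns.

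In the second block, circles shared a common core. The 63-nt exon at 32565558 was listed in 26 of the 50 detected circles and the 222-nt exon at 32567670 in 23, more than any other exons. The 808-nt circle (32543300 to 32584304, 7 exons) was the second most abundant. It had 7 and 18 counts in controls against 12 and 18 in knockdowns. Per 100000 this was 1.48 and 3.23 in controls against 4.24 and 4.61 in knockdowns, so both knockdowns lay above both controls by a ratio of 1.88. The ratio was 1.37 against control replicate 2 alone. In controls this circle and the 659-nt circle lay within each other's spread, with means of 2.36 ± 1.24 and 2.27 ± 1.11 per 100000 (SD, n = 2).

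The 859-nt circle (32565558 to 32584304, 6 exons) had 4 and 15 counts in controls against 5 and 12 in knockdowns. Its groups overlapped, with means of 1.77 ± 1.31 and 2.42 ± 0.922 per 100000 (SD, n = 2). The 1258-nt circle (32543300 to 32583307, 9 exons) had 7 and 3 counts in controls against 4 and 2 in knockdowns, with overlap. The 907-nt circle (32543300 to 32623817, 8 exons) had 3 and 5 in controls against 2 and 5 in knockdowns, again with overlap. These 3 circles therefore gave no separation of the groups.

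The 979-nt circle (32565558 to 32635158, 8 exons) had 0 and 2 counts in controls against 5 and 6 in knockdowns, which separated the groups on few reads. The 1120-nt circle (32543300 to 32635158, 10 exons) ended at the same donor and went the other way, with 5 and 3 counts in controls and 1 in each knockdown. Its ratio of knockdown to control was 0.382. In the lower group either circle had fewer than the 3 counts of the floor in each library. The 828-nt circle (32558986 to 32584304) had 5 and 4 counts in controls against 1 and 3 in knockdowns, with overlap as levels. The 817-nt circle (32543300 to 32625144) had 1 and 5 in controls against 2 and 4 in knockdowns, also with overlap. The table called these last 2 intron circles.

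The 1511-nt circle (32462683 to 32584304) joined 13 exons of both blocks. It had 2 and 3 counts in controls against 2 and 7 in knockdowns. Per 100000 the knockdown levels of 0.707 and 1.79 lay above the control levels of 0.423 and 0.539, though 3 of the 4 libraries were at or under 3 counts.

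Among the 12 circles, both knockdowns thus lay above both controls for 5, below for 2, and the groups overlapped for 5. Over all 21576 circles with at least 10 counts, 23.2% lay higher without overlap and 22.9% lower. No share of the 12 is read against these, because CCDC7 was chosen on this contrast. In edgeR's quasi-likelihood test 0 of the 21576 circles passed an adjusted p of 0.05 (0%), with 2925 (13.6%) at an unadjusted p under 0.05, and DESeq2 called 1052 (4.88%). Those at an unadjusted p under 0.05 and higher after knockdown were 9.29% of all.

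By back-splice site, the busiest start outside the 659-nt circle was 32543300, used by 9 circles with 120 counts. Its summed levels were 4.87 and 7.01 per 100000 in controls against 8.84 and 8.45 in knockdowns. Start 32565558 was used by 4 circles, at 0.847 and 4.13 in controls against 4.95 and 4.61 in knockdowns. The gap to the knockdowns at that start came mostly from control replicate 1, and against control replicate 2 alone the ratio was 1.16. The busiest end was 32584304, closed by 9 circles with 135 counts, at 4.23 and 8.26 in controls against 7.78 and 12.03 in knockdowns, with overlap. End 32623817 was lower in both knockdown libraries, at 1.91 and 3.05 in controls against 1.06 and 1.79 in knockdowns. In all, 23 starts and 23 ends were used by detected circles, and 13 of each by a single circle.

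**Figure D4:**
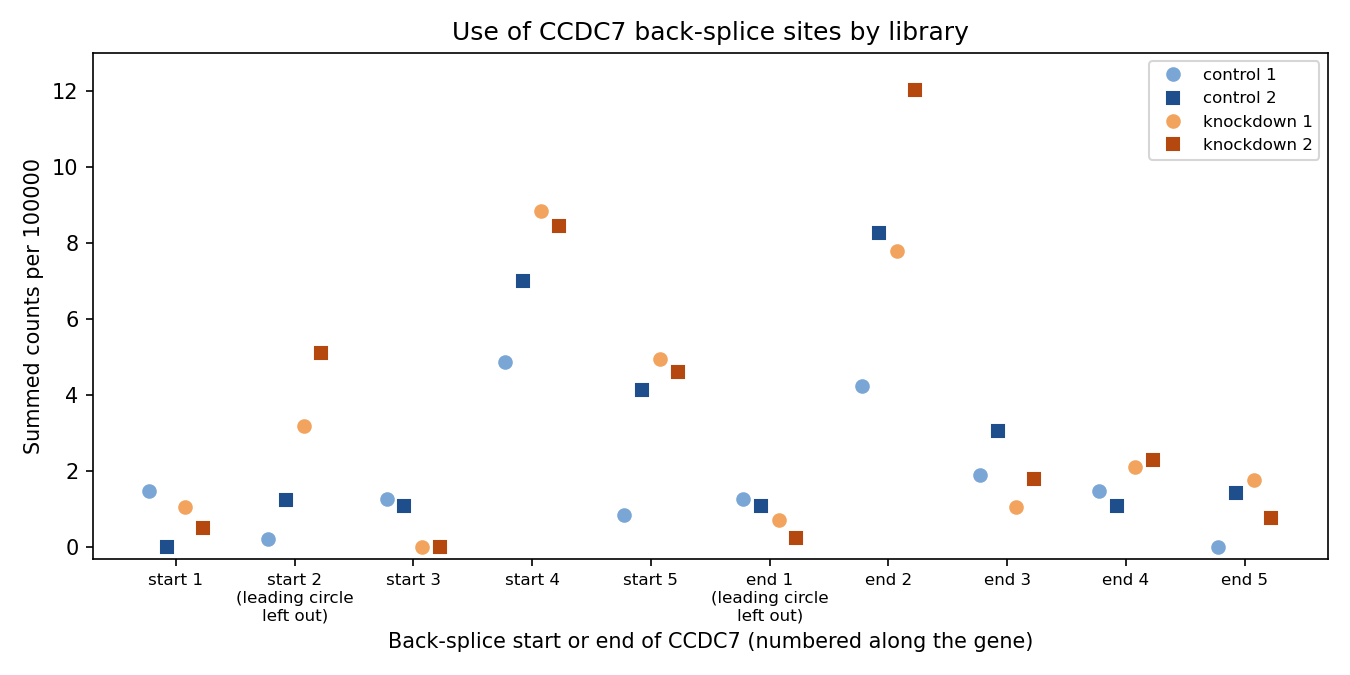
Summed counts per 100000 at the CCDC7 back-splice starts and ends used by at least 3 detected circles with at least 10 counts in all, numbered along the gene, 1 point per library. With the 659-nt circle left out, its start (start 2) is higher in both knockdown libraries and its end (end 1) is lower, at 3.18 and 5.12 and at 0.707 and 0.256.

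The internal structure of the circles varied as well. Over all their isoforms the detected circles listed 81 different exons, of which 35 occurred in 1 circle only and 19 in 5 or more. Exons ending at 32583307 were listed with 5 different starts. The 274-nt form of this exon occurred in 20 circles, and a 1154-nt form that begins further upstream occurred in 4. Of the 56 positions, 45 listed 1 isoform, 8 listed 2 and 3 listed 3. The 859-nt circle listed 3 isoforms, of 859, 1547 and 3171 nt. Counts are given per position and not per isoform, so the use of these forms could not be compared between groups.

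Past the last of the 12 abundant circles, the gene gave few circular reads. The 10 circles that ended beyond 32635158 held 26 counts, with 0 and 8 in control libraries against 9 in each knockdown. Beyond that position they listed exons from 32675665 to 32876580, and some of them also listed exons upstream of it. Of the 29 exons beyond it, 22 were a multiple of 3 in length, beside 20 of the 52 exons upstream. Both sets include unspliced stretches, such as a 4389-nt stretch beyond it and a 1516-nt stretch upstream. Of those 29, 7 were exactly 84 nt and 4 exactly 111 nt long. These repeated lengths are those of exons listed for circles with few counts, and the choice of CCDC7 did not use exon lengths. No test was made of them, since alternative forms of an exon are counted separately here and unspliced stretches are counted as exons.

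The number of different CCDC7 circles was compared at equal depth, meaning equal library totals and not equal CCDC7 counts. The 49 circles other than the 659-nt circle had higher summed levels in knockdowns, by a ratio of 1.71. The part of those higher levels in the number of circles was not tested. Libraries showed 17 and 24 circles in controls against 28 and 33 in knockdowns. At 282737 counts per library, 14.5 and 19.97 were expected in controls against 28 and 29.1 in knockdowns. The means were 17.2 ± 3.85 and 28.6 ± 0.784 (SD, n = 2), a ratio of 1.66, with both knockdowns above both controls. Most of these circles were rare, and 20 of the 50 were seen in 1 library only. Circles found in knockdowns only numbered 20, with at most 12 counts, and circles found in controls only numbered 12, with at most 10. The matching numbers over all circles are not given here. Over the whole table, 106227 and 77209 circles were detected in controls against 62513 and 74531 in knockdowns, at unequal library totals. Weighted by counts, the median CCDC7 circle was 907 and 859 nt long in the controls and 659 nt in both knockdowns. Without the 659-nt circle it was 1120 nt in control replicate 1 and 859 nt in the other 3 libraries.

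The host genes whose levels over the 4 libraries were most like those of CCDC7 were LINC01340, FANCB and BMP2K, among 4763 with at least 40 counts. Likeness was the root-mean-square difference of log2 levels per 100000 plus 0.5, each gene centred on its own mean. It was 0.062 for LINC01340, 0.071 for FANCB and 0.083 for BMP2K. FANCB, a component of the Fanconi anemia core complex, had 49.5 and 74.7 per 100000 in controls against 267 and 300 in knockdowns. LINC01340, a long non-coding RNA, had 2.12 and 3.95 in controls against 13.8 and 17.7 in knockdowns. BMP2K, a kinase gene, had 2.54 and 4.31 in controls against 15.6 and 21.3 in knockdowns. With 4 libraries and a shared difference between groups, this is a description of the level profiles only.

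Genes beside CCDC7 on the short arm of chromosome 10 were listed for comparison. Of 14 listed neighbours, 13 had circles and 11 could be tested, and 0 passed an adjusted p of 0.05 in edgeR, with 3 at an unadjusted p under 0.05 and 1 called by DESeq2. Over all 8379 host genes 13.8% had an unadjusted p under 0.05 and DESeq2 called 2.21%. As levels per 100000, 7 of the 11 neighbours were lower after knockdown and 2 higher without overlap between groups. Over all host genes tested, 36.7% were lower and 15.3% higher. In the edgeR fits, which scale libraries differently (TMM), 5 of the 11 neighbours had a log2 fold change above 0 and 6 below. The median of their log2 fold changes was -0.25, and that of all 8379 host genes was -0.26. KIF5B, which encodes a kinesin heavy chain, had 15 and 20 counts in controls against 37 and 95 in knockdowns. ITGB1, the integrin beta-1 gene, had 293 and 223 in controls against 59 and 104 in knockdowns. Per 100000, KIF5B was thus higher and ITGB1 lower in both knockdown libraries, which are shallower.

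Other host genes named CCDC for a coiled-coil domain, which need not be related by descent, numbered 62, and 39 could be tested. In edgeR 0 of the 39 passed an adjusted p of 0.05, with 7 at an unadjusted p under 0.05, all higher after knockdown, and DESeq2 called 2. Over all host genes 7.58% had an unadjusted p under 0.05 and were higher, beside the 13.8% in either direction and the 2.21% called by DESeq2. Without overlap between groups, 13 of these genes were higher and 5 lower, beside 15.3% higher and 36.7% lower over all host genes tested. The median of their log2 fold changes was 0.52 and that of all host genes -0.26, or 0.23 and -0.58 when scaled by library size. The most abundant were CCDC18, CCDC14, CCDC138 and CCDC91. CCDC138 had 78 and 215 counts in controls against 179 and 304 in knockdowns, and its levels did not overlap between groups. CCDC18 had 456 and 1107 in controls against 455 and 657 in knockdowns, and overlapped, as did CCDC14 and CCDC91. CCDC7, at a fitted 2.43, lay above the median of these genes, but it was chosen with its value known and is not compared with them by a test.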

How the data were processed

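Circular RNA was measured in 4 libraries made from total RNA with the Induro reverse transcriptase and phi29 amplification, per the labels' protocols. The authors deposited raw counts per back-splice position, and CIRI-long is named as the caller in all 211599 rows, per the file headers and columns. GRCh38.p14 and DESeq2 are named in the submitters' processing notes; the aligner, the filters and the caller's version are not given in the sources used here. The deposited CPM columns sum to 100000 and equal the deposited counts per 100000 to rounding, so values were computed from the counts. Coordinates are as deposited.

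Host gene sums counted every circle that is not antisense once for each gene it names, with library totals over all circles. edgeR 4.0.16 (TMM, quasi-likelihood F test, default dispersion, at least 10 counts, Benjamini-Hochberg) was fitted to all circles and all host genes, with DESeq2 1.42.0 as an alternative (R 4.3.3). Standard errors come from the F statistic. The fitting code was tested on simulated data. P-values measure only the spread between these samples, which may be technical. Numbers of circles at equal depth are hypergeometric expectations. Circles with at least 10 counts, at most 12, were described singly. Likeness named 3 host genes sharing no circle with CCDC7. Lists of neighbours, CCDC genes and markers were checked as described. The members and lists were chosen with earlier results of these data known. No sequence was printed, because none for CCDC7 was used here.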

Additional observations from a re-analysis of the deposited data

Results flagged for a closer look

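Antisense circles naming CCDC7 were left out of every value in the report. They held 4 counts over the 4 libraries, 0 in both controls and 1 and 3 in knockdown replicates 1 and 2. They are given because the controls had none, but a count of 0 allows up to 3 counts in a library, so a difference was not detectable at this depth.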

How the results depend on the processing

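The log2 fold change of summed CCDC7 counts stayed above 0 in all 16 alternatives and moved by more than the replicate spread in 3: it was 1.05 without the 659-nt circle, and between 2.02 and 3.10 over the fits leaving out 1 library. The share of the 659-nt circle, as knockdown minus control, stayed between 51.9 and 55.1 percentage points. Leaving out 1 library, the ratio of circles at equal depth lay between 1.43 and 1.97 and the difference in median length between -248 and -200 nt. Circles past the threshold numbered 0 as reported, 1052 with DESeq2, 471 unfiltered, 1422 when 2 libraries needed 5 counts, 562 when 40 counts were needed, and 0 to 6266 leaving out 1 library. Host genes numbered 37 as reported, 60 with DESeq2 size factors, 185 with DESeq2, 369 unfiltered, 116 when 2 libraries needed 5 counts, 108 when 40 counts were needed, 0 with the newer dispersion method, 89 with circles naming 1 gene, 81 with exon circles, 14 with antisense circles included, and 0 to 2794 leaving out 1 library. The number of features tested also changed with the filter, and the cause of these differences was not tested. Scaling by library size moved the median of all host genes from -0.26 to -0.58 (log2). The pairing check gave a correlation of 0.071 between libraries of the same number, over 4944 circles, and no label pairs them. With a replicate block 1620 circles and 300 host genes passed, and the CCDC7 log2 fold change was 2.48. Counts of 1 to 9 per circle limit all but the most abundant CCDC7 circles.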
